A study of Homo sapiens
Mus musculus with 6 samples.

Results

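The transcriptome of a human embryonic kidney line that carries wild-type Jag1 (HEK-Jag1WT) was compared with that of the HEK-control line, over all human genes of 6 co-culture wells. The comparison rests on 4 wells: 2 HEK-Jag1WT and 2 HEK-control, chosen by their labels alone. In each pair of wells the partner was the same mouse myoblast line, either unmodified C2C12 (C2C12-control) or C2C12 carrying full-length Notch1 (C2C12-Notch1). The remaining 2 wells held HEK-Jag1Ndr, a line that carries the Nodder form of Jag1, and entered the same model.

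All HEK lines are HEK293 Flp-In cells, a human embryonic kidney line with a recombination site into which a transgene can be placed. Growth medium held 300 ug/mL hygromycin for HEK-Jag1WT and HEK-Jag1Ndr, and no hygromycin is named for HEK-control, so selection and Jag1 cannot be told apart. C2C12-Notch1 was grown with 1 ug/mL puromycin. In all 6 wells the myoblasts settled for 8 h, then received 1.6 ug of the plasmid pcDNA5 by lipofection, and 18 h later the HEK cells were added in medium without antibiotics. Cells were lysed together after 6 h, so each library holds polyadenylated RNA of both species. Whether a Flp-In line is 1 clone, and which promoter drives its Jag1, is not stated in the labels. The 6 wells stood on 1 plate and nothing says that they came from separate cultures, so p-values measure well-to-well spread that may be only technical.

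Between 4081452 and 10292878 reads per well were counted on human genes, and mouse reads made up 29.6% to 52.7% of the total of both species. The mouse share was 49.4% and 33.6% in the HEK-control wells beside C2C12-control and C2C12-Notch1, and 47.2% and 29.6% in the HEK-Jag1WT wells. Of 20 myoblast marker genes read in the human table, MYF5, MYOG, TMEM8C, CDH11 and DCN had 0 reads in all 6 wells, and MYOD1 and DES lay at or below 0.523 RPKM (reads per kilobase of gene and per-million reads). Another 7 passed the filter on low counts, with TNNT1 (log2 difference 0.65) and PAX7 (0.91) called higher in HEK-Jag1WT, COL1A1 (-0.92), COL3A1 (-2.20) and SPARC (-0.75) called lower, and a median of -0.75. PAX7 missed the threshold without replicate 2 of HEK-control (0.73, edgeR adjusted p = 0.157) or of HEK-Jag1WT (0.58, edgeR adjusted p = 0.361). The part of these markers in the other results was not tested. The summed level over the 20 genes was 52.0 to 54.5 RPKM in HEK-control and 52.4 to 55.7 RPKM in HEK-Jag1WT. HEK markers summed to 1020 to 1040 RPKM in HEK-control and 1050 to 1130 RPKM in HEK-Jag1WT. SALL4 and STMN2, also on that marker list, were at or below 0.142 RPKM in every well. Of 10 endothelial, immune and fibroblast markers only PDGFRA and LUM passed the filter on low counts, and neither was called.

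Jag1 is a membrane-bound ligand of the Notch receptors. A ligand on one cell binds Notch on its neighbour, the receptor is cleaved by ADAM proteases and then by gamma-secretase, and the released intracellular domain joins RBPJ and Mastermind proteins on target genes such as the HES and HEY repressors. Ligand and receptor made in the same cell can also bind each other in cis, which is known to reduce signalling. HEK293 cells express Notch receptors and ligands of their own, so a ligand line is both a sender and a potential receiver.

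The transgene was read on the mouse Jag1 gene and separated the lines as labelled. Mouse Jag1 gave 110 and 280 reads in the HEK-control wells, or 27.0 and 27.2 per-million human reads (RPM); the myoblasts' own part in these was not tested. In the HEK-Jag1WT wells it gave 42347 and 46762 reads, or 8220 and 8700 RPM, 312-fold the control mean. The HEK-Jag1Ndr wells held 8880 and 9450 RPM. Human JAG1, the gene of the HEK cells themselves, stood at 8.33 and 9.23 RPKM in HEK-control and at 6.07 and 5.16 RPKM in HEK-Jag1WT. It fell by 0.67 on the log2 scale (SE 0.11, n = 2 wells per line, adjusted p = 4.48e-07; edgeR's quasi-likelihood test with Benjamini-Hochberg adjustment, used for every adjusted p here). HEK-Jag1Ndr wells had 8.6 and 10.2 RPKM, above HEK-Jag1WT (log2 difference 0.77, SE 0.108, adjusted p = 9.66e-09). In HEK-Jag1WT the mouse gene held 252 times the reads of human JAG1, and how reads were assigned to a species is not given. The part of transgene reads in the human JAG1 values was not tested, so the size of both differences is uncertain.

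**Figure D1:**
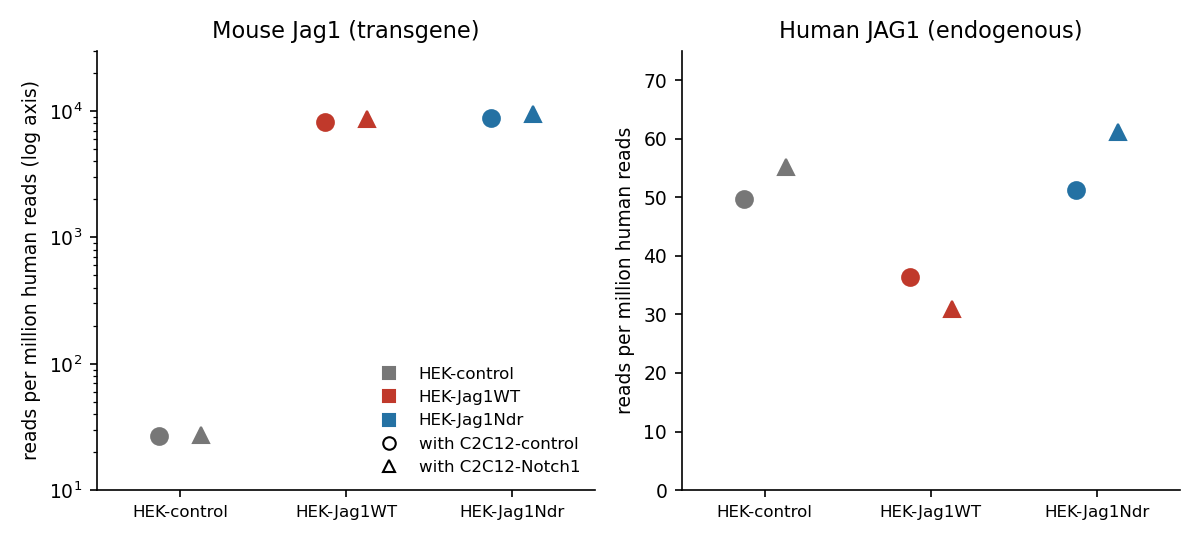
Reads per-million human reads (RPM) of the mouse Jag1 gene (left, log axis) and of human JAG1 (right, linear axis), 1 point per well. HEK-control holds 27.0 and 27.2 RPM of the mouse gene against 8220 and 8700 in HEK-Jag1WT, while the human gene is lowest in the 2 HEK-Jag1WT wells.

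A large part of the transcriptome differed between the HEK lines. Of 13596 human genes tested, 7379 were called at an adjusted p below 0.05 (54.3%): 3386 higher in HEK-Jag1WT (24.9%) and 3993 lower (29.4%). Most differences were modest, with a median absolute log2 difference of 0.51 among the called genes. More than 2-fold, 494 genes were higher (3.63%) and 731 lower (5.38%). The tail was longer on the lower side: 188 called genes were lower and 52 higher by more than 4-fold, and 89 lower and 10 higher by more than 8-fold. Of the 7379 called genes 16 had no read in either HEK-Jag1WT well, and 0 called genes were without reads in both HEK-control wells. The median over all tested genes was -0.026. In lysates of whole wells, fewer cells that express a gene and less of its RNA per cell cannot be told apart. The wells beside each partner were also set against each other alone: 7350 of the 7379 called genes (99.6%) had the same sign beside C2C12-control and beside C2C12-Notch1, and 29 had opposite signs. Among genes not called, 62.2% had the same sign. The call itself used both pairs, so this share describes the called genes and is no separate test.

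**Figure D2:**
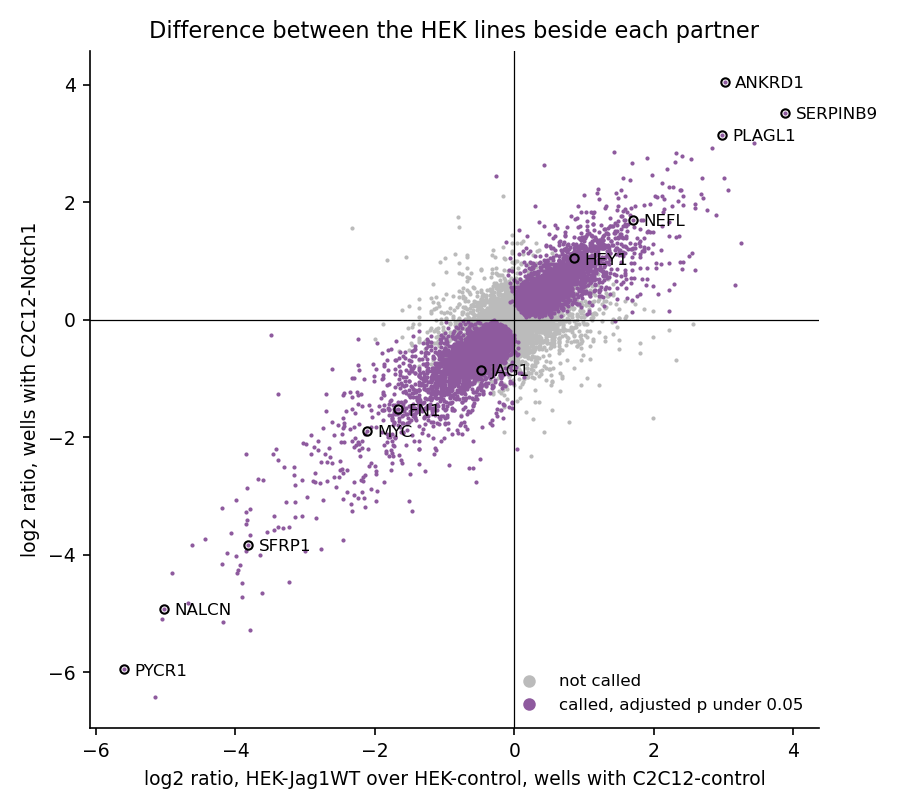
Log2 ratio of HEK-Jag1WT over HEK-control for each tested gene in the wells with C2C12-control (horizontal) and with C2C12-Notch1 (vertical), purple where the gene was called over both pairs. Called genes lie at the lower left and upper right, with 7350 of 7379 on the same side of 0 beside both partners, and named genes are ringed.

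Among called genes with an average of at least 2 log2 CPM (counts relative to library size), the largest rises were taken by log2 difference. Such a ranking favours genes with a low level in HEK-control, and those named here were weakly expressed there. ANKRD1, a muscle ankyrin repeat protein and a known target of the YAP coactivator, gave 1.25 and 1.14 RPKM in HEK-control and 11.5 and 21.7 RPKM in HEK-Jag1WT. Its log2 difference was 3.95 (SE 0.211, adjusted p = 5.04e-25), and 3.17 without HEK-control replicate 1. SERPINB9, an inhibitor of granzyme B, gave 0.439 and 0.708 RPKM against 7.75 and 9.21 RPKM, a log2 difference of 3.76 (SE 0.208, adjusted p = 4.17e-24). HEK-Jag1Ndr had 0 reads of SERPINB9 in both wells, against 156 and 194 reads in HEK-Jag1WT. PLAGL1, an imprinted zinc finger gene, gave 2.08 and 1.87 RPKM against 18.2 and 18.5 RPKM (log2 difference 3.14, SE 0.154, adjusted p = 6.82e-27), while HEK-Jag1Ndr wells had 1.66 and 1.39 RPKM. For all of these, every HEK-Jag1WT well lay above every HEK-control well, which adds no support because the genes were picked by the same values.

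The next in size were CECR7, a non-coding gene (log2 difference 2.83), FAM50B, an imprinted retrogene (2.79), ZC3H6 (2.74), C14orf39 (2.70), WWC3 (2.67), the membrane progestin receptor PAQR8 (2.67), the hair follicle protein trichohyalin, TCHH (2.63), the chloride-proton exchanger CLCN4 (2.60), WDR78 (2.46), coagulation factor VIII, F8 (2.41), the signalling adaptor SH2D3C (2.33) and ZNF503-AS2 (2.31). Their adjusted p ranged up to 9.13e-09, the value for WDR78. ZNF503-AS2 stood at 4.37 and 4.49 RPKM in HEK-control and 27.8 and 24.8 RPKM in HEK-Jag1WT. It is an antisense gene, and the library kit does not mark strand, so its reads cannot be told apart from those of an overlapping partner. CLCN4, F8, PAQR8 and SH2D3C moved by over 1.5-fold without HEK-control replicate 1, to 1.97, 1.64, 3.30 and 2.99. These 15 genes do not all share a state in the other ligand line. ZC3H6 was at 0.869 and 0.93 RPKM in HEK-Jag1WT and 1.0 and 0.761 RPKM in HEK-Jag1Ndr (difference -0.012, adjusted p = 0.965). WWC3 was at 8.85 and 9.51 RPKM against 18.6 and 17.0 RPKM, higher in HEK-Jag1Ndr by 0.98 on the log2 scale (adjusted p = 8.94e-16). FAM50B was at 10.8 and 10.3 RPKM against 2.3 and 2.12 RPKM, so that HEK-Jag1Ndr minus HEK-Jag1WT was -2.21 (adjusted p = 2.29e-13).

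Several genes were lost from the libraries of HEK-Jag1WT. EPHA3, a receptor for ephrin-A ligands, had 41 and 104 reads in HEK-control and 0 in both HEK-Jag1WT wells, at least 36.1-fold lower against a floor of 3 reads over both wells (adjusted p = 1.69e-16). HEK-Jag1Ndr wells had 72 and 51 reads. ZNF682 had 19 and 48 reads against 0 and 0, at least 16.7-fold lower (adjusted p = 1.33e-10). The BMP antagonist chordin-like 1, CHRDL1, had 3 and 10 reads against 0 and 0, at least 3.23-fold lower (adjusted p = 0.000902), and its call was lost on log2(RPKM + 1) values (adjusted p = 0.104). In HEK-Jag1Ndr, CHRDL1 had 77 and 56 reads, more than in either other line. Only through these reads did it pass the filter on low counts and enter the ranking by size, so its place among the losses rests on a line outside the comparison.

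PYCR1, the mitochondrial enzyme that makes proline from pyrroline-5-carboxylate, had the highest control level of the 15 most lowered genes. It gave 136 and 308 reads, or 16.3 and 14.7 RPKM, in HEK-control, and 2 reads and 1 read in HEK-Jag1WT. The ratio of control to HEK-Jag1WT reads was 110 (95% counting interval 37.6 to 538; adjusted p = 4.62e-27). HEK-Jag1Ndr kept 10.6 and 9.01 RPKM. The sodium leak channel NALCN gave 65 and 149 reads against 1 and 1, a ratio of 79.9 (interval 21.8 to 664). CYP7B1, an oxysterol hydroxylase, gave 30 and 54 reads against 1 and 0, a ratio of 62.7 (interval 11.0 to 2510). MUC16, a large transmembrane mucin, gave 27 and 120 reads against 1 and 0, a ratio of 110 (interval 19.4 to 4360), and was not called on log2(RPKM + 1) values (adjusted p = 0.0996). AMBN, the enamel protein ameloblastin, gave 64 and 179 reads against 4 and 2, a ratio of 30.2 (interval 13.7 to 83.2), and stood higher in HEK-Jag1Ndr than in HEK-control, at 482 and 479 reads. FAM19A5, a secreted chemokine-like protein, gave 68 and 123 reads against 2 and 3, a ratio of 28.5 (interval 12.0 to 88.8). PSIMCT-1, a retrocopy whose reads can be shared with its parent gene, gave 18 and 66 reads against 1 and 0, a ratio of 62.7 (interval 11.0 to 2510). These intervals cover counting error only, and the libraries hold no molecular identifiers. With so few reads the fitted differences of ZNF160, CYP7B1, MUC16, PSIMCT-1, ZNF440, ZNF667 and AMBN moved by over 1.5-fold without 1 HEK-Jag1WT well, for example from -6.94 to -10.43 for ZNF160 without HEK-Jag1WT replicate 2, with the call kept.

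**Figure D3:**
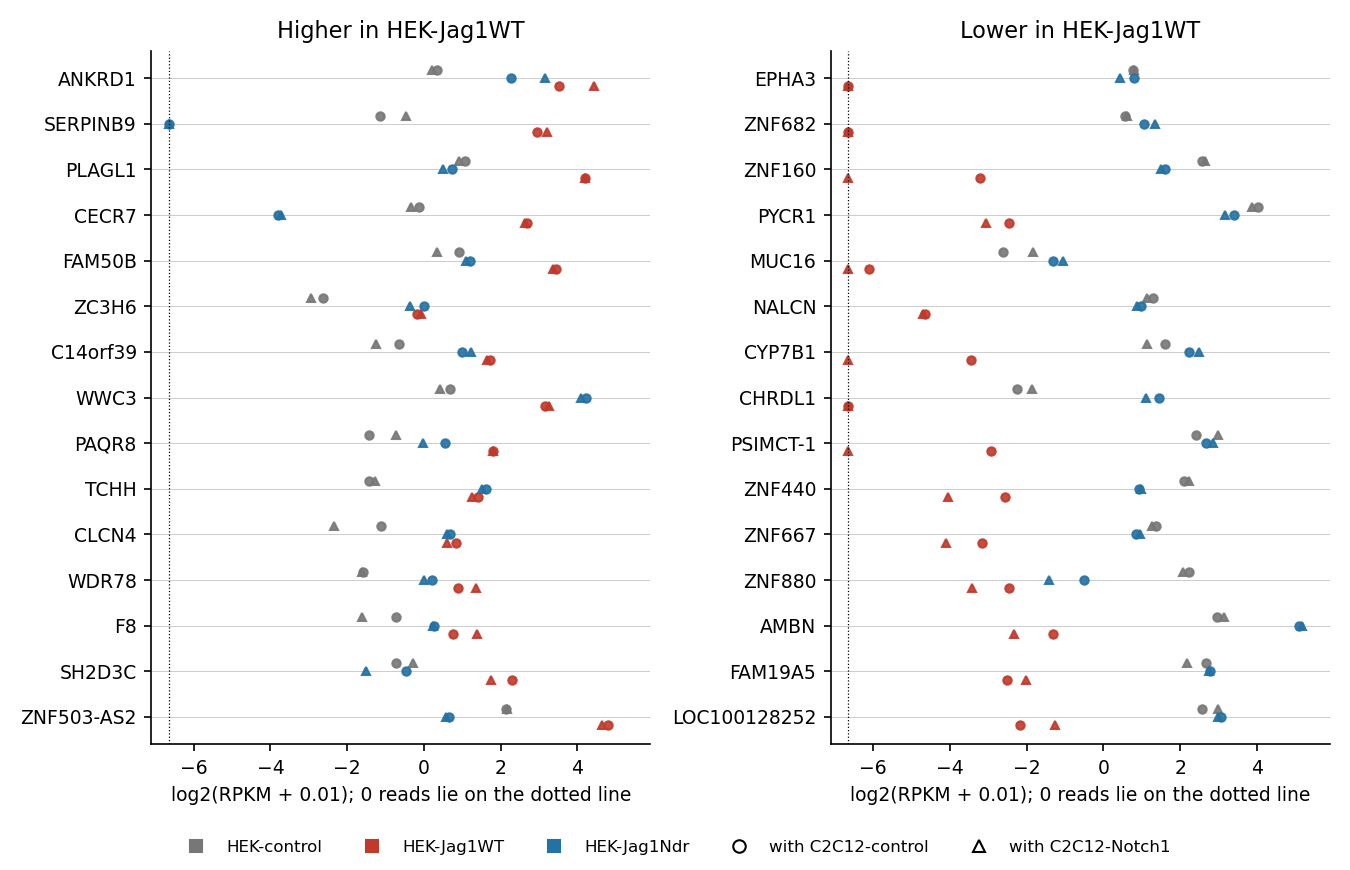
Level of the 15 most raised and 15 most lowered called genes in each of the 6 wells, as log2(RPKM + 0.01); colour gives the HEK line and shape the myoblast partner, and points on the dotted line had 0 reads. EPHA3, ZNF682 and CHRDL1 lie on that line in both HEK-Jag1WT wells, and SERPINB9 does in both HEK-Jag1Ndr wells.

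The remaining losses were in zinc finger genes, a large family of DNA-binding proteins of which many carry a KRAB repressor domain and sit in clusters on chromosome 19. ZNF160 gave 99 and 267 reads in HEK-control and 2 and 0 in HEK-Jag1WT, a ratio of 137 (interval 37.5 to 1130). ZNF440 gave 64 and 175 reads against 3 and 1 (ratio 44.6, interval 17.2 to 165). ZNF667 gave 41 and 109 reads against 2 and 1 (ratio 37.3, interval 12.5 to 183), and its neighbour LOC100128252 gave 27 and 85 against 1 and 2 (ratio 27.9, interval 9.29 to 137). ZNF880 gave 43 and 97 reads against 2 and 1 (ratio 34.8, interval 11.7 to 171). Members of this family are similar in sequence, and reads that fit several of them may have been split. Of 441 tested genes whose symbol starts with ZNF, 138 were lower (31.3%, beside 29.4% of all tested genes) and 79 higher (17.9%, beside 24.9%), with a median of -0.094. The share called lower was thus near the background. Zinc finger genes made up 3.24% of the tested genes and 25 of the 89 genes lower by more than 8-fold (28.1%).

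Some of the lost zinc finger genes lay next to each other. By gene order in NCBI RefSeq (GRCh38.p14; the reads were mapped to hg19, so no positions are given), the tested genes on either side of ZNF682 are ZNF93 and ZNF90, with 1 and 1 and with 1 and 2 reads in HEK-Jag1WT against 18 and 55 and against 10 and 39 in HEK-control. ZNF440 lies between ZNF441, with 22 and 53 reads in HEK-control and 0 in both HEK-Jag1WT wells, and ZNF700, with 51 and 86 against 1 and 0. ZNF160 lies between ZNF816, with 36 and 96 reads against 1 and 4, and ZNF677, with 10 and 39 against 1 and 0. All of these neighbours were called. ZNF880 instead lies between ZNF528 (-2.60) and ZNF480, which was called higher (0.34), and ZNF667 between LOC100128252 and ZNF583, which was lower by a smaller amount (-0.63). In HEK-Jag1Ndr, ZNF441 had 4 and 4 reads, ZNF700 had 2 and 2 and ZNF93 had 3 and 2, while ZNF682 had 46 and 52. On the X chromosome the raised genes WWC3 and CLCN4 are neighbours, and SHROOM2 beside WWC3 also rose, from 23 and 53 to 67 and 69 reads (log2 difference 1.31, adjusted p = 5.53e-07). Other large changes stood alone: NALCN lies between TMTC4 (0.63) and TPP2 (0.20), AMBN between YTHDC1 (0.37) and UTP3 (0.50), and FAM19A5 between TBC1D22A (0.46) and BRD1 (0.43), all of them higher in HEK-Jag1WT.

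Differences also ran along whole chromosomes. Over all tested genes 24.9% were called higher and 29.4% lower. On chromosome 7, 360 of 672 tested genes were called higher (53.6%) and 75 lower (11.2%), with a median log2 difference of 0.39. On chromosome 16, 372 of 601 genes were called lower (61.9%) and 31 higher (5.16%), with a median of -0.41. Chromosome 20 had a median of -0.38 (203 of 363 lower, 55.9%) and chromosome 3 of -0.32 (417 of 771 lower, 54.1%). The median was -0.23 on chromosome 14, -0.22 on chromosome 2, -0.21 on chromosome 17 and -0.16 on chromosome 19. Chromosomes 1, 4, 10, 11, 12, 13, 15, 18, 21 and 22 had medians between 0.087 and 0.17. The medians beside the 2 partners lay close together, at 0.42 and 0.35 for chromosome 7 and at -0.34 and -0.42 for chromosome 16. Within chromosome 7 the genes from COBL to C7orf61 stood highest: 143 of these 190 genes were called higher and 7 lower, with a median of 0.76 (0.78 beside C2C12-control, 0.75 beside C2C12-Notch1), and HEK-Jag1Ndr minus HEK-control gave 0.32 over the same genes. Long runs of lower genes were POLR3K to TUBB3 on chromosome 16 (596 genes, median -0.42), FAM110C to LOC541471 on chromosome 2 (448 genes, -0.40), CAPN7 to GOLGB1 on chromosome 3 (395 genes, -0.35), PALM to HOMER3 on chromosome 19 (381 genes, -0.44) and ESF1 to PCMTD2 on chromosome 20 (289 genes, -0.45). HEK-Jag1Ndr minus HEK-control gave -0.31, 0.015, 0.067, 0.019 and 0.041 over those 5 runs. From ACYP1 to TMEM121 on chromosome 14 the signs were opposite, with -0.36 in HEK-Jag1WT and 0.36 in HEK-Jag1Ndr over 158 genes. These runs were picked by their values, so their medians are a description with no test. DNA was not measured.

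Cutting the gene order into 270 blocks of about 50 tested genes gave 7 blocks with a median above 0.3 in the fit and in both pairs, and 35 blocks with a median below -0.3 in all of them. In the 7 high blocks 73.9% of 372 genes were called higher, and in the 35 low blocks 63.8% of 1778 genes were called lower. In all other blocks 26.4% were called higher and 24.8% lower. The blocks were chosen by these same log2 differences, which fixes the direction of that contrast, so the shares are a description. The low blocks held 1778 of the 13548 genes placed in the gene order and 28.5% of the lower calls among these. Lower calls were thus denser in the low blocks, while most of them lay outside.

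**Figure D4:**
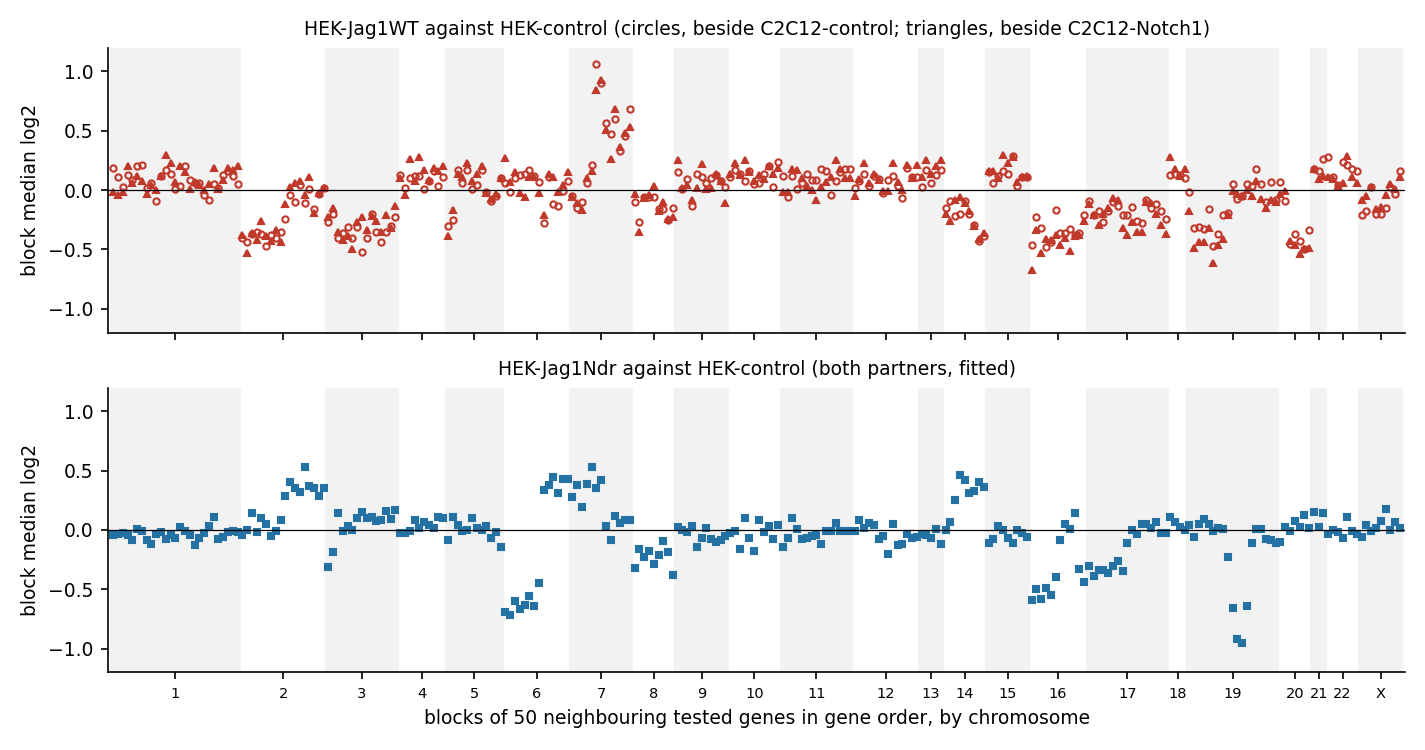
Median log2 difference from HEK-control in blocks of 50 neighbouring tested genes, in gene order along chromosomes 1 to 22 and X. Upper panel, HEK-Jag1WT beside each partner; lower panel, HEK-Jag1Ndr over both partners; HEK-Jag1WT blocks reach 1.06 beside C2C12-control on chromosome 7, and most blocks of chromosomes 3, 16 and 20 lie below 0.

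The Notch pathway of the HEK cells showed a mixed picture. Of 11 tested receptors and ligands 2 were higher (18.2%, beside 24.9% of all tested genes) and 4 lower (36.4%, beside 29.4%). Their median was 0.090, but -0.015 and -0.085 beside C2C12-control and C2C12-Notch1 taken alone and -0.014 without HEK-Jag1WT replicate 2. The count of 4 lower became 1 without HEK-Jag1WT replicate 2, and 2 without HEK-control replicate 1 or HEK-Jag1WT replicate 1. Among receptors, NOTCH3 stood at 7.47 and 5.94 RPKM in HEK-control and 11.4 and 9.34 RPKM in HEK-Jag1WT, a rise of 0.59 (SE 0.0901, adjusted p = 8.15e-08). NOTCH2, the most abundant receptor, stood at 26.3 and 26.1 RPKM against 26.6 and 30.3 RPKM and was not called (0.10, adjusted p = 0.114). NOTCH1 stood at 7.87 and 9.78 RPKM against 7.08 and 8.33 RPKM, so the groups overlapped between partners; its call (-0.23, adjusted p = 0.0174) was lost in 7 of 15 alternatives, with an adjusted p of up to 0.336. NOTCH4 lay at or below 0.57 RPKM in all wells and was not called (adjusted p = 0.551).

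Among ligands, JAG2 stood at 10.0 and 9.45 RPKM in HEK-control and 17.3 and 12.4 RPKM in HEK-Jag1WT, a rise of 0.55 (SE 0.0908, adjusted p = 6.55e-07). Thus endogenous JAG1 and JAG2 moved in opposite directions. DLL1 fell by 0.53 (adjusted p = 0.00774) and DNER, a Delta- and Notch-like neuronal membrane protein, by 1.60 (adjusted p = 0.0195), but DNER rested on 9 and 15 reads against 2 and 4, and both calls were lost in some alternatives (5 of 15 for DLL1, without either HEK-Jag1WT well among them, adjusted p of up to 0.217; 3 of 13 for DNER, adjusted p of up to 0.279, with a difference of -2.29 without HEK-Jag1WT replicate 1). DNER also passed the filter on low counts only through its HEK-Jag1Ndr reads, 47 and 36. DLL3, DLL4 and DLK2 were not called, with log2 differences of -0.091, 0.43 and 0.090. DLK1 did not pass the filter.

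Notch target genes were lower more often than higher in HEK-Jag1WT, with 6 of 12 tested members lower (50%, beside 29.4% of all genes), 2 higher (16.7%) and a median of -0.53. MYC, a growth regulator and Notch target in some cell types, showed the largest change, from 97.2 and 95.8 RPKM to 22.8 and 26.1 RPKM, a fall of 1.99 (SE 0.0768, adjusted p = 3.27e-32). HEK-Jag1Ndr lay between, at 47.0 and 55.3 RPKM. CCND1, cyclin D1, went from 50.6 and 50.5 RPKM to 27.8 and 28.1 RPKM (-0.88, adjusted p = 1.34e-18). MYC and CCND1 answer to many other inputs as well. Among the HES and HEY repressors the directions differed. HEY1 rose from 31.4 and 31.4 RPKM to 58.1 and 65.6 RPKM (0.98, SE 0.0764, adjusted p = 2.42e-17). HEY2 fell from 14.1 and 16.3 RPKM to 8.39 and 10.6 RPKM (-0.71, adjusted p = 7.11e-07), HEYL from 8.56 and 8.62 RPKM to 5.0 and 3.77 RPKM (-1.02, adjusted p = 1.42e-09), and HES1 from 28.4 and 24.8 RPKM to 19.3 and 16.7 RPKM (-0.57, adjusted p = 4.61e-05). For each of these 4 genes the HEK-Jag1WT wells lay on 1 side of both HEK-control wells. They were called on the same values and such separation was not counted over all tested genes, so it is a description. NRARP, a feedback inhibitor of Notch, fell by 0.49 (adjusted p = 1.29e-05). HES7 was called higher (1.22, adjusted p = 0.0151) on 8 and 8 reads against 21 and 12, and lost the call in 5 of 14 alternatives (adjusted p of up to 0.253); leaving out any 1 of the 4 compared wells was enough. HES4, LFNG, GATA3 and DTX1 were not called (0.20, -0.32, -0.17 and -1.09), HES5 had no reads and 1 more listed gene did not pass the filter. Over HEK-Jag1Ndr minus HEK-Jag1WT, HEY2, HEYL, HES1, CCND1 and MYC were higher by 0.94 to 1.08 on the log2 scale and HEY1 was lower (-0.35, adjusted p = 1.97e-05).

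Of the machinery around the receptor, 8 of 30 tested genes were higher (26.7%, near the 24.9% of all tested genes) and 12 lower (40.0%, beside 29.4%). The median was -0.0094, and its sign turned with other scalings (0.012 with DESeq2 size factors). On the ligand side, MIB1, the ubiquitin ligase that ligands need for endocytosis, rose from 14.7 and 15.5 RPKM to 23.9 and 28.1 RPKM (0.76, SE 0.0633, adjusted p = 2.45e-16). NEURL rose by 0.59 on 41 and 73 reads against 69 and 65 (adjusted p = 0.0098), without holding in 4 of 15 alternatives. Of the glycosylation enzymes, POFUT1, which adds O-fucose to Notch, fell from 36.8 and 38.1 RPKM to 24.5 and 22.4 RPKM (-0.70, adjusted p = 4.65e-14), and the fringe enzyme RFNG fell by 0.76 (adjusted p = 2.42e-10). The blocks of POFUT1 and RFNG were lowered too, with medians of -0.46 and -0.32. Both receptor-cleaving ADAM proteases were lower: ADAM10 fell by 0.60 (adjusted p = 3.37e-06) and ADAM17 fell by 0.52 (adjusted p = 8.54e-06). ADAM17 lies on chromosome 2 in a block with a median of -0.42, while the block of ADAM10 had a median of 0.25. The part of the blocks in these falls was not tested. The gamma-secretase genes PSEN2, NCSTN, APH1A, APH1B and PSENEN were not called. In the nucleus, RBPJ (0.27) and MAML1 (0.38) were called higher and MAML3 (-0.47), SPEN (-0.31) and KAT2B (-0.58) lower, while EP300 (0.15) and SNW1 (0.17) were called higher by small amounts. The regulators DTX4 (-1.04), DTX3 (-0.31), ITCH (-0.28) and MIB2 (-0.30) were called lower and NUMBL (0.23) higher. ITCH lies in a block with a median of -0.45, while the block medians of DTX4, DTX3 and MIB2 were 0.09, 0.0093 and 0.089. NUMB, DTX2, FBXW7, MAML2 and NEURL1B were not called. The calls of RBPJ, MAML3, EP300, SNW1, MIB2, ITCH, DTX3 and NUMBL did not hold in every alternative, with adjusted p of up to 0.166, 0.321, 0.46, 0.395, 0.409, 0.0596, 0.409 and 0.265, each of them past the threshold without at least 1 of the compared wells.

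Beyond Notch, the gene groups that were mostly lower included targets of p53, the stress-activated tumour suppressor. Of 18 tested targets 14 were lower (77.8%, beside 29.4% of all tested genes) and 1 higher (5.56%, beside 24.9%), with a median of -0.74. TP53I3 went from 23.8 and 22.2 RPKM to 6.62 and 9.66 RPKM (-1.61, adjusted p = 8.44e-14), and FDXR from 23.2 and 23 RPKM to 8.07 and 7.37 RPKM (-1.54). SESN2, also an ATF4 target, went from 31.5 and 34.3 RPKM to 11.9 and 11.0 RPKM (-1.56). ZMAT3 (-1.04) and the death receptor TNFRSF10B (-0.85) were also lower, and the exception was XPC, a DNA repair factor (0.61). The most lowered target, named after its value was seen, was GDF15, at 17.1 and 13.3 RPKM against 2.96 and 3.31 RPKM (-2.31). MDM2 was not called (-0.069, adjusted p = 0.221), and CDKN1A was lower by a small amount (-0.36). HEK293 cells carry adenoviral E1 proteins that are known to bind p53. TP53I3 was higher in HEK-Jag1Ndr than in HEK-Jag1WT, at 36.0 and 34.2 RPKM (adjusted p of the difference = 1.62e-21).

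Stress-response genes were also mostly lower. In the ATF4 and ER stress list 14 of 23 members were lower (60.9%, beside 29.4% of all tested genes) and 5 higher (21.7%, near the background of 24.9%), with a median of -0.30. The amino acid transporter SLC7A5 went from 125 and 130 RPKM to 30.0 and 28.7 RPKM (-2.15, SE 0.0567, adjusted p = 2.03e-41), and the pseudokinase TRIB3 from 97.6 and 87.2 RPKM to 26.8 and 27.0 RPKM (-1.80, adjusted p = 2.05e-30). HERPUD1 (-1.45) and CALR (-0.68), which act in the endoplasmic reticulum, were lower as well. The higher members were ASNS (0.40), DNAJB9 (0.49), PDIA4 (0.51), ATF4 (0.52) and XBP1 (0.63); ATF4 thus stood at 494 and 499 RPKM against 336 and 343 RPKM while several of its known targets were lower. Of 13 heat shock chaperones 9 were lower (69.2%, against the same background) and 2 higher (15.4%). HSPA1B, inducible HSP70, had one of the largest changes in level of any gene, from 4700 and 4530 RPKM to 1010 and 1090 RPKM (-2.16, adjusted p = 1.02e-46). Its near-identical copy HSPA1A was called higher, from 311 and 315 RPKM to 484 and 499 RPKM, and counting can split their reads, so their sum was taken: its log2 ratio was -1.82 beside C2C12-control and -1.67 beside C2C12-Notch1. HSP90AA1 went from 1360 and 1390 RPKM to 741 and 760 RPKM (-0.90, adjusted p = 1.07e-27), and HSPA8 (-0.56) and DNAJB1 (-0.73) were lower. HSPB1, the small chaperone HSP27, rose from 52.0 and 50.8 RPKM to 139 and 114 RPKM (1.23, adjusted p = 2.71e-18); it lies in the raised part of chromosome 7, where its block of 50 genes had a median of 0.92.

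Interferon response genes differed between the HEK lines beside each partner. Of 23 tested members 15 were lower in HEK-Jag1WT (65.2%, beside 29.4% of all tested genes) and 2 higher (8.7%, beside 24.9%), IRF7 (0.46) and IFI44 (0.63), with a median of -0.57. IFIT1, which binds foreign RNA, gave 278 RPKM in HEK-control and 116 RPKM in HEK-Jag1WT beside C2C12-control, and 431 and 213 RPKM beside C2C12-Notch1. Each line was thus higher beside C2C12-Notch1. IFIT1 fell by 1.15 (adjusted p = 2.82e-29), and OASL (-1.18), the RNA sensor IFIH1 (-0.94), IFIT2 (-0.62) and IFIT3 (-0.53) were lower too. Without the partner as a term of the model none of these 5 was called, with adjusted p of 0.188 for IFIT1, 0.259 for OASL, 0.301 for IFIH1, 0.456 for IFIT2 and 0.495 for IFIT3. HEK-Jag1Ndr wells held more, for instance 394 and 624 RPKM of IFIT1 and 93.0 and 155 RPKM of IFIH1 against 15.7 and 32.7 RPKM in HEK-Jag1WT. Of 12 tested genes of MHC class I antigen presentation, 8 were lower (66.7%, beside 29.4%) and 4 were not called, with a median of -0.35. HLA-C went from 322 and 325 RPKM to 225 and 220 RPKM (-0.57), and HLA-B (-0.56), the peptide transporter TAP1 (-0.74) and B2M (-0.31) were lower. HLA genes are highly alike and polymorphic, so their separate values are uncertain.

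In the lists of matrix and cell contact genes, the shares called lower were above the 29.4% of all tested genes and those called higher below the 24.9%. Of 32 tested collagens, laminins and fibronectin 22 were lower (68.8%) and 2 higher (6.25%), LAMA3 (0.85) and LAMB1 (0.41), with a median of -0.46. Fibronectin, FN1, went from 31.1 and 40.9 RPKM to 9.93 and 14.3 RPKM (-1.59, SE 0.0625, adjusted p = 9.29e-32), and stood at 66.0 and 84.5 RPKM in HEK-Jag1Ndr. LAMB2 (-1.62), LAMB3 (-1.50) and COL9A2 (-1.74) were lower too. The myoblasts in the well make matrix genes as well; the called matrix genes COL1A1 (-0.92) and COL3A1 (-2.20) are on the myoblast marker list, and the part of mouse reads in these values was not tested. Of 21 tested cadherins and protocadherins 11 were lower (52.4%) and 1 higher (4.76%), CELSR1 (0.28). PCDH19 went from 6.97 and 8.05 RPKM to 0.648 and 0.678 RPKM (-3.52, adjusted p = 4.8e-31), and E-cadherin CDH1 (-0.94) and P-cadherin CDH3 (-1.14) were lower. Of 22 integrins and other adhesion genes 12 were lower (54.5%) and 1 higher (4.55%), L1CAM (0.89). ALCAM went from 39.5 and 39.6 RPKM to 14.7 and 16.9 RPKM (-1.34), and ITGA7 (-1.18), ITGA2 (-1.03) and EPCAM (-0.39) were lower.

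Guidance and contact signals between cells were next described. Of 20 tested Eph receptors and ephrins 8 were lower (40.0%, beside 29.4% of all tested genes) and 2 higher (10%, beside 24.9%), EPHB4 (0.17) and EPHA10 (1.04). Besides EPHA3, the ephrins EFNB1 (-1.38) and EFNB2 (-1.07) and the receptors EPHB3 (-1.49) and EPHA4 (-0.98) were lower. Of 37 semaphorins, plexins, slits, netrins and their receptors 19 were lower (51.4%) and 1 higher (2.7%). That 1 was SEMA3C, from 5.51 and 5.65 RPKM to 15.5 and 16.0 RPKM (1.47, adjusted p = 5.68e-20), in the chromosome 7 region whose block median was 0.95. UNC5B went from 28.7 and 29.6 RPKM to 11.0 and 10.4 RPKM (-1.47), and SEMA6A (-1.96) and ROBO1 (-1.08) were lower. In the Wnt pathway 13 of 34 members were lower (38.2%) and 6 higher (17.6%), not far from the shares of all tested genes, 29.4% and 24.9%. SFRP1, a secreted Wnt antagonist, went from 18.3 and 17.4 RPKM to 1.27 and 1.17 RPKM (-3.88, SE 0.147, adjusted p = 1.25e-32), with 15 and 16.1 RPKM in HEK-Jag1Ndr. WNT5A (-1.12) and FZD8 (-0.77) were lower, and the co-receptor LRP5 (0.77) and the transcription factor TCF7 (0.47) higher.

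In the list of ID genes and the BMP and TGF-beta response, 7 of 16 were lower (43.8%, beside 29.4% of all tested genes) and 2 higher (12.5%, beside 24.9%), SMAD9 (0.65) and SKIL (0.24). ID2 went from 74.9 and 69.3 RPKM to 35.0 and 34.7 RPKM (-1.06, adjusted p = 5.95e-15), BMP7 from 24.1 and 21.7 RPKM to 11.7 and 11.4 RPKM (-1.01), and BAMBI fell by 0.69. TGFB1 fell by 0.36, a call that was lost without HEK-Jag1WT replicate 1 (adjusted p = 0.0839). YAP targets had 5 of 17 higher (29.4%, beside 24.9% of all genes) and 2 lower: besides ANKRD1, AMOTL2 (0.93), CYR61 (0.75) and AMOTL1 (0.46) were higher and CRIM1 was lower (-0.87). CYR61 lost its call without the partner term (adjusted p = 0.259), and CTGF was not called (0.15, adjusted p = 0.148). The 22 immediate early genes, the first transcripts after growth or stress signals, split into 6 higher (27.3%) and 10 lower (45.5%). EGR3 rose from 4.32 and 5.73 RPKM to 15.6 and 19.0 RPKM (1.76, adjusted p = 3.49e-22), KLF6 was higher by 1.03 and ATF3 by 0.56, and IER2 fell by 0.63; ATF3 lost its call without the partner term (adjusted p = 0.367).

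Groups tied to growth stood on the other side. Of 26 tested cell cycle and replication genes 15 were higher (57.7%, beside 24.9% of all genes) and 2 lower, with a median of 0.28. MKI67, the Ki-67 proliferation antigen, went from 46.9 and 52.4 RPKM to 79.1 and 93.6 RPKM (0.79, SE 0.0466, adjusted p = 7.94e-23). BUB1B, a spindle checkpoint kinase, rose by 0.73, TOP2A, topoisomerase II alpha, by 0.51 and the replicative helicase subunit MCM7 by 0.66. MCM7 is on chromosome 7, where its block median was 0.47. The lower members were E2F1 (-0.68), on chromosome 20 with a block median of -0.46, and RRM2 (-0.44). Of 38 tested cytosolic ribosomal protein genes 23 were higher (60.5%) and 8 lower (21.1%, beside 29.4%), with a median of 0.20. Their summed level was 22700 and 22400 RPKM in HEK-control and 26700 and 25300 RPKM in HEK-Jag1WT. RPL3 (0.53), RPS4X (0.45), RPL6 (0.40), RPS3 (0.40) and RPS16 (0.26) were higher, and RPL15 on chromosome 3 was lower, from 586 and 548 RPKM to 363 and 352 RPKM (-0.66, adjusted p = 1.97e-19). Ribosomal protein genes have many pseudogenes, and their reads may be shared with these. EEF2, a translation elongation factor, was lower, from 1230 and 1200 RPKM to 911 and 855 RPKM (-0.48), and so were the snoRNA host ZFAS1 (-1.23) and cytoplasmic gamma-actin, ACTG1 (-0.51).

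Metabolic groups were mixed. Hypoxia and glycolysis genes had 12 of 21 lower (57.1%, beside 29.4% of all tested genes) and 3 higher (14.3%, beside 24.9%): hexokinase HK2 went from 34.2 and 29.4 RPKM to 12.8 and 11.9 RPKM (-1.39, adjusted p = 4.09e-25), NDRG1 from 154 and 138 RPKM to 68.9 and 61.9 RPKM (-1.19), and VEGFA (-1.01) and ALDOA (-0.57) were lower. EGLN3 fell by 1.27 but was not called without the partner term (adjusted p = 0.0652). Cholesterol synthesis had 7 of 19 higher (36.8%) and 5 lower (26.3%). CYP51A1 rose by 1.06 in the raised region of chromosome 7 (block median 0.95), and the regulator SREBF2 on chromosome 22 went from 37.4 and 38.4 RPKM to 76.3 and 68.0 RPKM (0.89, adjusted p = 2.21e-20). Oxidative phosphorylation had 9 of 32 higher (28.1%) and 8 lower (25%), close to the background shares. COX5A (0.66) and ATP5O (0.32) were higher and UQCRC2 (-0.45), UQCRC1 (-0.42) and COX4I1 (-0.33) lower, the last without a call when HEK-Jag1WT replicate 1 was left out (adjusted p = 0.0626).

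Among genes of cell identity, 21 of 40 tested SOX, PAX and other developmental regulators were lower (52.5%, beside 29.4% of all tested genes) and 2 higher (5%, beside 24.9%), LIN28B (0.53) and EYA1 (0.67). SOX11 went from 1.66 and 1.71 RPKM to 0.067 and 0.107 RPKM (-4.24, adjusted p = 1.62e-16) (-4.98 without HEK-control replicate 1), and HEK-Jag1Ndr wells were also low, at 0.0483 and 0.155 RPKM (difference 0.22, adjusted p = 0.799). SOX9 (-1.29), SOX4 (-0.91) and FOXA1 (-0.88) were lower. Of 33 HOX genes 9 were lower (27.3%), 3 higher (9.09%) and 21 not called, so the share called lower was near the background. HOXA13 went from 7.07 and 6.28 RPKM to 1.95 and 1.56 RPKM (-2.02, adjusted p = 2.48e-11), and HOXD4 from 2.11 and 2.09 RPKM to 4.71 and 5.24 RPKM (1.18, adjusted p = 0.000788; 0.121 without HEK-Jag1WT replicate 1). HOXB9 (-0.46), HOXB13 (-1.21) and HOXD11 (-0.78) were lower, HOXD11 without a call when HEK-Jag1WT replicate 1 was left out (adjusted p = 0.069). HEK293 cells are known for expressing neuronal genes, and of 18 such genes 5 were higher (27.8%) and 8 lower (44.4%). NEFL, the light neurofilament subunit, rose from 62.8 and 59.1 RPKM to 208 and 195 RPKM (1.70, SE 0.0509, adjusted p = 3.32e-38) and stood at 27.3 and 24.2 RPKM in HEK-Jag1Ndr. INA was higher (0.49) and CHGA (-1.39), MAPT (-0.92) and NRXN3 (-0.91) lower. Of 18 keratins and epithelial genes 10 were lower (55.6%) and 3 higher (16.7%), with KRT8 (-0.36), CLDN1 (-1.22) and JUP (-0.86) lower and TJP1 (0.56) higher. Of the 16 tested HEK markers 4 were higher (25%) and 6 lower (37.5%).

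Among 5 tested clade B serpins SERPINB9, SERPINB6 and SERPINB1 were higher (60%, beside 24.9% of all tested genes) and 0 were lower (beside 29.4%). SERPINB6, the neighbour of SERPINB9, went from 30.4 and 25.6 RPKM to 59.0 and 49.5 RPKM (0.95, adjusted p = 8.51e-13), and SERPINB1 on its other side was higher by 0.53, a call lost without HEK-control replicate 1 (adjusted p = 0.0569). SERPINB2 and SERPINB8 were not called. Of 12 tested genes on the imprinted list 5 were lower (41.7%, beside 29.4% of all tested genes) and 2 higher (16.7%, beside 24.9%), PLAGL1 and SGCE (0.71). The raised imprinted gene FAM50B (2.79) was not on this list, so the counts and the list median leave it out. SGCE and PEG10 lie in the same raised block of chromosome 7 (median 0.95), yet PEG10 went from 74.3 and 78.6 RPKM to 48.7 and 55.5 RPKM (-0.57, adjusted p = 1.65e-15). PHLDA2 (-1.18) and GRB10 (-0.46) were lower as well. Of 29 cancer-testis genes 2 could be tested; PRAME was called lower (-0.34, adjusted p = 0.0301, lost in 6 of 15 alternatives) and TEX14 was not called.

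Because neighbouring genes moved together, each list was also described relative to the block of 50 genes around each member, a step added after the data were seen. The median then became -0.62 for p53 targets (from -0.74), -0.56 for interferon genes (from -0.57), -0.50 for collagens, laminins and fibronectin (from -0.46), 0.23 for cell cycle genes (from 0.28) and 0.19 for ribosomal protein genes (from 0.20). Other lists moved more: immediate early genes from -0.27 to -0.11, HOX genes from -0.25 to -0.13, YAP targets from 0.15 to 0.023 and imprinted genes from -0.56 to -0.75. The median of the Notch receptors and ligands turned sign, from 0.090 to -0.033. Single lowered genes differed in their surroundings. Block medians were -0.55 for TP53I3, -0.55 for CALR, -0.52 for BMP7, -0.42 for ID2 and -0.41 for HK2, but 0.12 for SESN2, 0.17 for UNC5B and 0.13 for LAMB3.

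**Figure D5:**
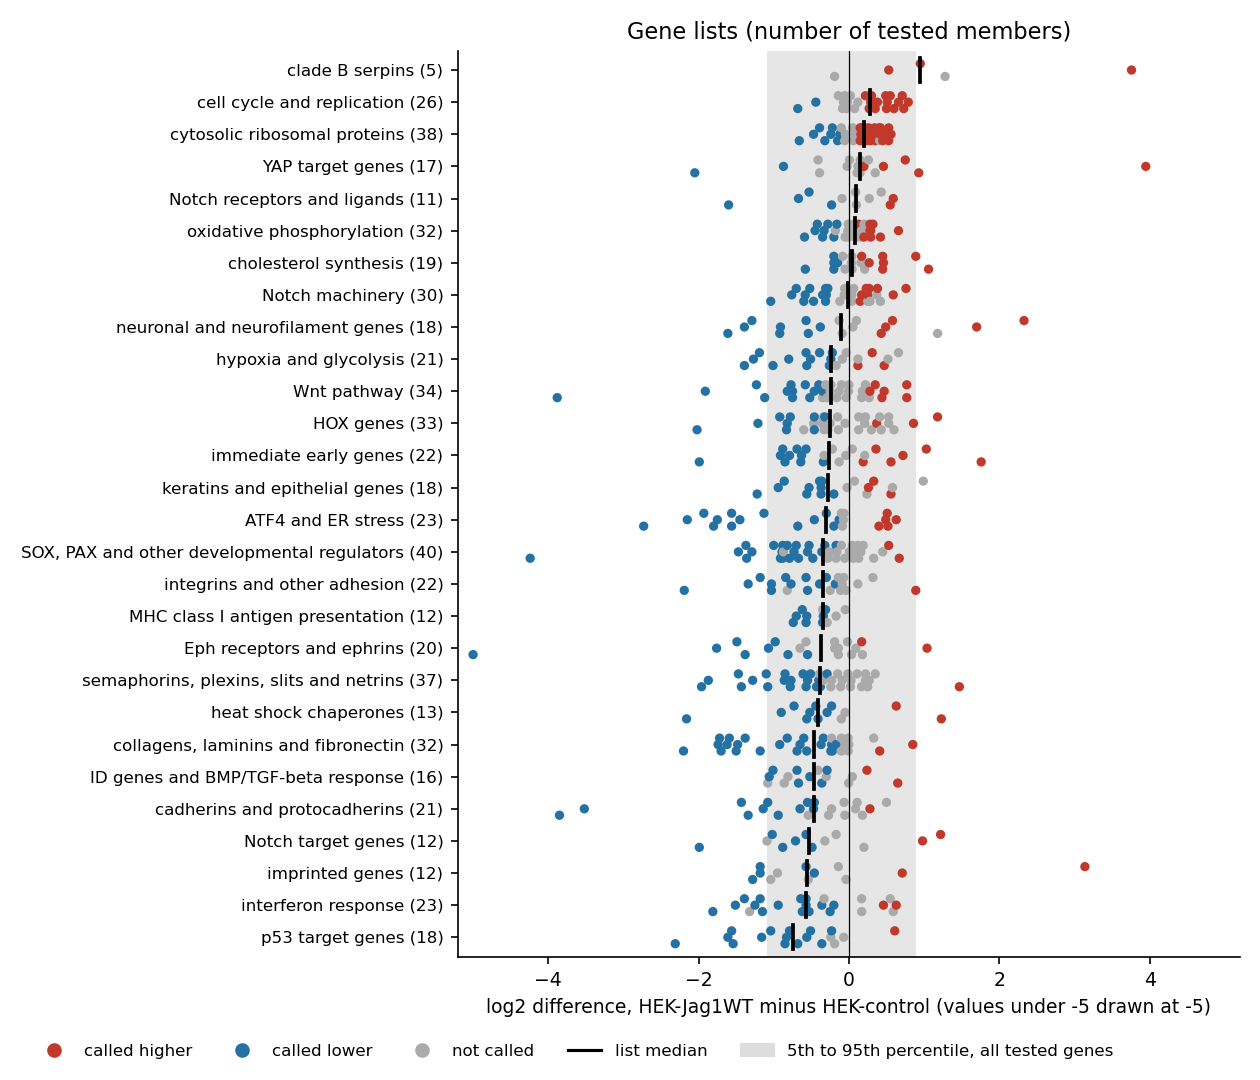
Log2 difference between HEK-Jag1WT and HEK-control for every tested member of 28 gene lists, sorted by list median (black bar); red and blue points were called, and the grey band spans the 5th to 95th percentile of all tested genes, -1.07 to 0.88. Cell cycle and ribosomal protein genes have medians of 0.28 and 0.20, and p53 target, interferon and imprinted genes have the lowest medians.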

How the data were processed

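Human and mouse reads of 6 co-culture wells were mapped by the authors with STAR to hg19 and mm9, per the submitters' processing notes. The deposited tables hold 1 read count and 1 RPKM value per gene and well, per the file headers; how reads were assigned to a species is not given in the sources used here. After 448 exact repeats were left out, 23855 human entries were kept. Counts as deposited were tested with edgeR 4.0.16 (R 4.3.3; TMM, filterByExpr, robust quasi-likelihood) on HEK line plus partner over all 6 wells, which leaves 2 residual degrees of freedom; 13596 genes passed the filter. The partner line pairs the wells by design. Levels are the deposited RPKM, within a ratio of 1.1 of a fixed multiple of the counts for 94.7% of 11306 genes with at least 20 reads in each compared well. Alternatives used DESeq2 1.42.0, limma 3.58.1 on log2(RPKM + 0.1) and log2(RPKM + 1), other scalings and filters, 4 wells, no partner term and each well left out. The test was run on simulated data first. Genes were named by rule: JAG1 and NOTCH1, the 15 largest changes each way whose average log2 CPM was 2 or more, 5 per list by smallest p, all tested Notch genes, and the 5 largest RPKM differences each way; members outside the rule were named after their values were seen, and a few genes that the rule names are not reported here. Members and lists were chosen with earlier results of these data known. GRCh38.p14 gene order was matched for 13548 tested genes.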

Additional observations from a re-analysis of the deposited data

How the results depend on the processing

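The count of called genes fell from 7379 to 4267 with the DESeq2 Wald test (2050 higher, 2217 lower) and to 6148 without the replicate block, that is without the partner term that pairs the wells. Leaving out 1 well gave 5047 to 7381 called genes, of which 2519 to 3803 were lower; the lowest lower count, 2519, came without HEK-Jag1WT replicate 1. Genes past 2-fold fell from 1225 to 554 (227 higher, 327 lower) on log2(RPKM + 1), a scale that understates low genes, and the lower ones to 474 with a filter at an average log2 CPM of 2, where fewer genes are tested. Elsewhere the cause was not tested. Higher genes made up 45% to 50.3% of calls over all alternatives, 45.9% in the reported fit. Of 192 called genes that the naming rule holds, 161 were called in every alternative with a value and 31 lost the call in at least 1, 16 of these without the replicate block and 21 without 1 well. With 1 well left out a line keeps 1 well, which is then assumed to vary like the others. Signs turned for 8 genes, none of them called: over wells left out, NOTCH4 ranged from -0.19 to 0.94, HES4 from -0.012 to 0.53, LFNG from -1.06 to 0.017, GATA3 from -0.37 to 0.14, PSEN2 from -0.063 to 0.0018, NCSTN from -0.0067 to 0.14, FBXW7 from -0.28 to 0.12 (0.093 without HEK-control replicate 2) and TEX14 from -0.027 to 0.34. The median of the HOX genes turned from -0.25 to 0.0057 without HEK-control replicate 1, and that of the Notch receptors and ligands from 0.090 to -0.014 without HEK-Jag1WT replicate 2. Depth limits the genes with few reads: 3 reads in a well equal 0.291 to 0.735 RPM, below which a loss cannot be sized.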
